A study of Rattus norvegicus with 18 samples.

Results

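Of 4616 named genes in whole rat lung, 21 stood above fresh-air lung 2 hours after the last cigarette smoke exposure and were back near the air level, or below it, at 20 hours. They were chosen on measured values. A gene needed a value in all 6 samples at 2 hours and in at least 5 at 20 hours, a mean log2 ratio of smoke over air of at least 0.4 at 2 hours and of at most 0.1 at 20 hours, and its level was the mean of its distinct probes. Enough values were present for 3643 genes, of which 3492 remained once genes left out by name were removed: Cyp1a1, Aldh3a1, Nqo1, Nfe2l2, Gclc, Gclm, Txnrd1, Hmox1, Ms4a7, S100a9 and symbols that start with Slc, Kcn, Trp, Rpl or Rps. Each of the 21 genes was read by 1 distinct probe, and 19 had a value in all 18 samples.

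The 18 samples were rat lungs, read on 2-colour arrays as log2 ratios of smoke-exposed (Cy5) over fresh-air lung (Cy3). Rats breathed diluted smoke through the nose alone, with 300 µg of total particulate matter per litre at the low dose and 600 at the high dose, for 2, 7 or 13 weeks, and lungs were taken at 2, 6 or 20 hours once exposure had ended. Each of the 18 combinations had 1 sample, the pooled RNA of 4 exposed rats against the pooled RNA of 4 rats kept in conditioned fresh air, and both doses of a given week and hour shared 1 control pool. The strain, sex and age of the rats are not stated in the labels. Smoke lung was always the Cy5 channel, and a dye effect equal in all samples would stay in each level against air and cancel between samples. The 6 samples at an hour therefore rest on 3 control pools, and they differ in dose and weeks, so the standard deviations (SD) below hold both. A sample had a value for 3919 to 4583 named genes and its median ratio lay between -0.01 and 0.01. Precision is limited by the small number of arrays. In whole tissue, fewer cells of a type and less RNA per cell cannot be told apart, and a ratio gives no level of the lung itself, so the tissue could not be checked against its markers.

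Smoke particles carry polycyclic aromatic hydrocarbons and oxidants. The former bind the aryl hydrocarbon receptor, which switches on enzymes that oxidise them, and the latter release the factor NRF2, which drives genes of glutathione and antioxidant defence. Both programmes start soon after exposure and fade as the trigger is cleared, while recruited macrophages and neutrophils change the lung over longer times. Early genes of other kinds include transcription factors and receptors that respond to injury for a few hours.

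The values that chose the genes are given as a description, without a test. Of the 3492 genes, 127 reached a mean of 0.4 at 2 hours, and 106 of them were still above 0.1 at 20 hours. The mirror image, a mean of at most -0.4 at 2 hours and at least -0.1 at 20 hours, was met by 22 genes, and 2 genes showed the opposite order, at most 0.1 at 2 hours and at least 0.4 at 20 hours. The median of the 21 genes was 0.47 at 2 hours (from 0.40 to 1.72), 0.20 at 6 hours (from -0.09 to 0.69) and -0.01 at 20 hours (from -0.35 to 0.09). At 2 hours 17 of the 21 were above air in all 6 samples, which held for 10.2% of the 3492 genes. In 10 of the 21, every sample at 2 hours lay above every sample at 20 hours, against 1.09% of all, and both counts follow from the rule. These 10 were Ndrg4, Fmo2, Tnfrsf12a, Krt7, Abcc4, Mcam, Fstl3, Mospd2, Gpr182 and Stat3. The other 11 overlapped in at least 1 sample.

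**Figure D1:**
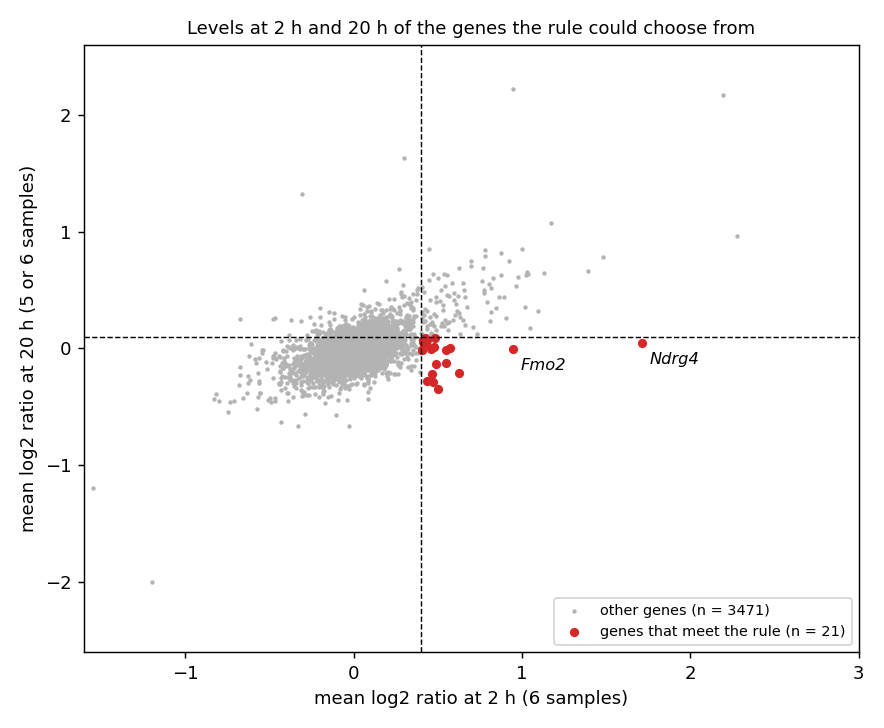
Each point is a gene, with its mean log2 ratio at 2 hours (6 samples) on the x axis and at 20 hours (5 or 6 samples) on the y axis; dashed lines mark the thresholds of 0.4 and 0.1, and the 21 genes are red. Ndrg4 at 1.72 and Fmo2 at 0.95 stand apart to the right, and most of the others lie close to the 2-hour threshold.

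The name of the set holds only in part. In 5 of the 21 genes (Serpina3n, Cx3cl1, Cybb, Cd36 and Gstt2) the mean at 6 hours was above that at 2 hours, a change that was not tested. For Serpina3n this rests on 1 sample at 2.61, and its median was lower at 6 hours (0.43) than at 2 hours (0.79). The medians of Cx3cl1, Cybb, Cd36 and Gstt2 were also higher at 6 hours. In 15 of the 21 the mean at 6 hours was under 50% of that at 2 hours, and in 12 the mean at 20 hours was below 0. Membership also depends on single samples, since 9 of the 21 met the rule whichever of its 12 samples was left out. Ndrg4 met it in 11 of 12 cases and not without the low-dose, 13-week sample at 20 hours. The 4 genes not above air in every sample at 2 hours were Zmynd11, Serpina3n, Cx3cl1 and Cybb.

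**Figure D2:**
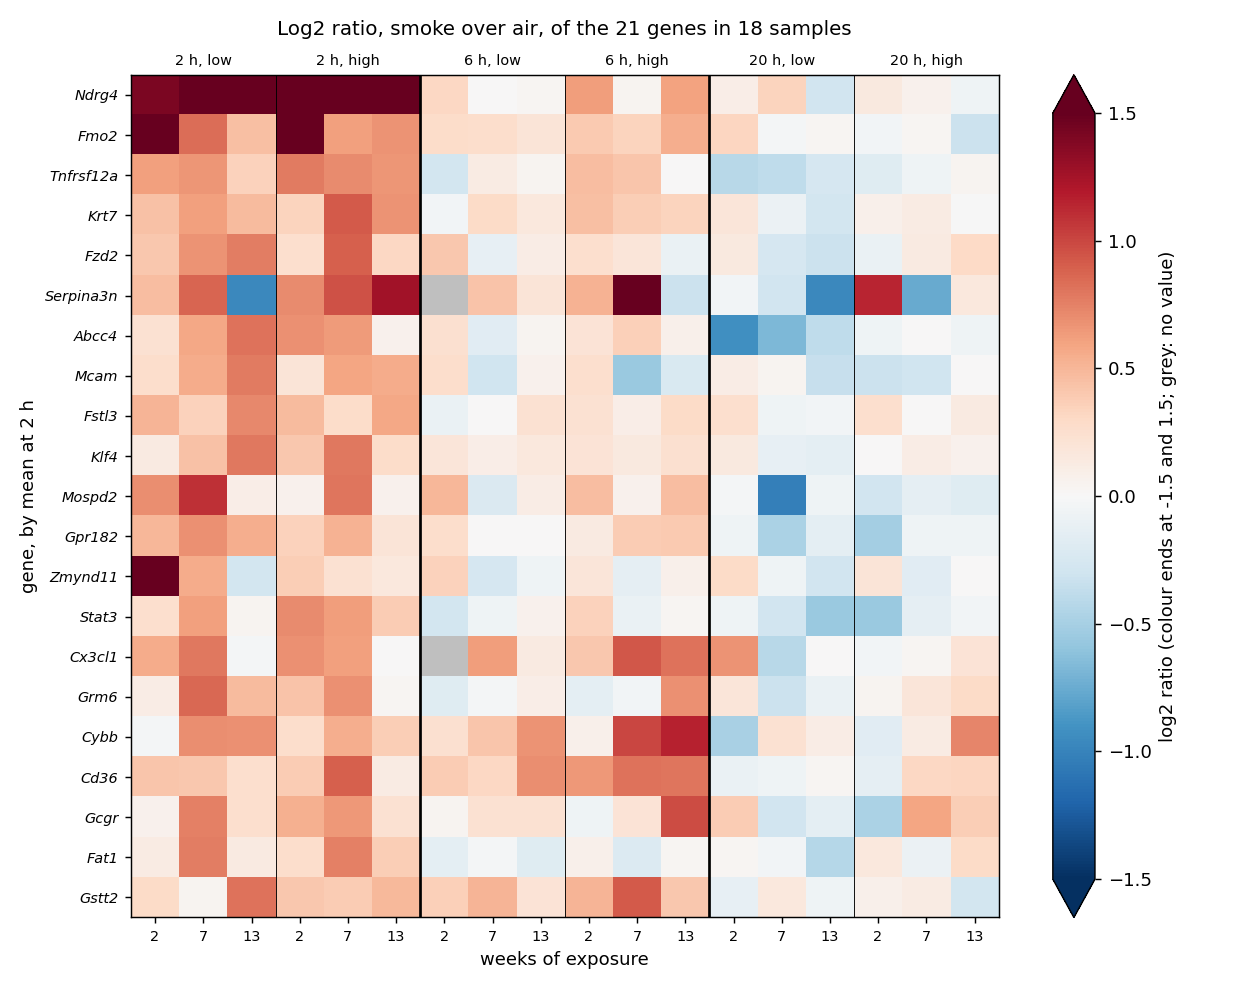
Log2 ratios of the 21 genes (rows, by mean at 2 hours) in the 18 samples (columns, by hours, dose and weeks); red is above air, blue below, grey is no value. Ndrg4 is the only one of the 21 genes above 1.4 in all 6 samples at 2 hours. Ndrg4, Fmo2, Klf4, Gpr182, Cybb, Cd36 and Gstt2 are above air in all 6 samples at 6 hours, some of them only slightly.

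Ndrg4, a member of the N-myc downstream-regulated gene family known mainly from brain and heart, had the largest mean at 2 hours, 1.72 ± 0.20 (SD, n = 6), or 3.28-fold. At 2 hours its low-dose samples of 2, 7 and 13 weeks stood at 1.41, 1.73 and 1.86, and its high-dose samples at 1.55, 1.95 and 1.79. At 6 hours they stood at 0.31, 0.01 and 0.03 at the low dose and at 0.63, 0.04 and 0.60 at the high dose. At 20 hours the values were 0.10, 0.33 and -0.29 (low) and 0.15, 0.07 and -0.06 (high). All samples at 2 hours were high and lay clear of those at 6 and 20 hours, whatever the weeks and the dose. The mean at 6 hours, 0.27 ± 0.29, was 15.7% of that at 2 hours, and the mean at 20 hours was 0.05 ± 0.21.

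The upstream sequence of Ndrg4 is shown because the gene stands apart in size, and that of Abcc4 because it holds 2 copies of the same short motif. Both are the 250 bases before the RefSeq start on the minus strand of assembly GRCr8, at chr19:9392973-9393222 for Ndrg4 and chr15:102181365-102181614 for Abcc4, written 5′ to 3′ along the gene. Capitals mark GCGTG on either strand (CACGC on the other), the core that the aryl hydrocarbon receptor binds in its response elements.
Ndrg4: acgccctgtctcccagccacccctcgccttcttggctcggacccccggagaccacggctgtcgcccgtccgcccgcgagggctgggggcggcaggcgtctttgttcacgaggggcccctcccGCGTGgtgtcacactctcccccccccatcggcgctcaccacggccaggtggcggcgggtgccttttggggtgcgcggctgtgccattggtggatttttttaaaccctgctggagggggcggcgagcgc
Abcc4: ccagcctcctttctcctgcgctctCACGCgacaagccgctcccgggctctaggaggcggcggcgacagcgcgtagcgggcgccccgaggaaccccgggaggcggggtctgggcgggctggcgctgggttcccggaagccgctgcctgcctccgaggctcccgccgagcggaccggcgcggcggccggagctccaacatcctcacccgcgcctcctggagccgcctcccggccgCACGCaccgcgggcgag

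A RefSeq promoter window of 300 bases, 250 before to 50 after the start, was present for 16 of the 21 genes. GCGTG on either strand was found in 5 of the 16 (31.2%: Ndrg4, Abcc4, Klf4, Stat3 and Cx3cl1), in 45.6% of the 3749 windows of genes on the array and in 29.7% of all 33469 windows. The longer form TNGCGTG, which contains GCGTG, was found in 2 (Abcc4 and Cx3cl1), against 7.98% of array genes. TGANNNNGC, the core of the antioxidant response element, was found in 6 of the 16 (37.5%, against 44% of array genes): Gpr182, Tnfrsf12a, Stat3, Abcc4, Zmynd11 and Cx3cl1. The cyclic AMP response element TGACGTCA was found in Fat1 alone (2.72% of array genes), and its part TGACG in Fat1 and Cd36 (30% of array genes). The AP-1 motif TGANTCA was found in Cybb (5.92% of array genes) and the heat shock motif GAANNTTC in Serpina3n (6.03%). The E-box CACGTG and the serum response element were found in 0 of the 16 windows (8.14% and 1.33% of array genes). All motifs were searched on both strands, and a match is a description of letters in this window. No motif was shared by more than 6 of the 16.

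Gene families that handle foreign compounds were represented by Fmo2, Gstt2 and Abcc4. Fmo2, of the flavin-containing monooxygenase family, followed Ndrg4 with means of 0.95 ± 0.49 at 2 hours, 0.33 ± 0.13 at 6 hours and 0.00 ± 0.20 at 20 hours (SD, n = 6 each). Whether the rats made an active Fmo2 enzyme is not known from these data. The 2-week samples were highest, at 1.58 (low) and 1.53 (high), followed by 0.84 and 0.61 at 7 weeks and 0.45 and 0.67 at 13 weeks. Both doses were thus high at 2 weeks, but they share 1 control pool. At 6 hours Fmo2 was above air in all 6 samples, at 0.28, 0.26 and 0.19 (low; 2, 7 and 13 weeks) and 0.39, 0.33 and 0.55 (high). By 20 hours the values lay around 0, at 0.32, -0.03 and 0.03 (low) and -0.04, 0.03 and -0.32 (high).

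Gstt2, a theta-class glutathione S-transferase, stood near the 2-hour threshold with means of 0.40 ± 0.26, 0.49 ± 0.24 and -0.02 ± 0.17 at 2, 6 and 20 hours (SD, n = 6 each). Its low-dose samples at 2 hours ranged from 0.04 at 7 weeks through 0.29 at 2 weeks to 0.82 at 13 weeks, and the high-dose samples stood at 0.40, 0.38 and 0.49. At 6 hours all 6 samples were above air, at 0.36, 0.51 and 0.21 (low) and 0.51, 0.92 and 0.41 (high). At 20 hours the range was -0.27 to 0.16, below every sample at 6 hours.

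Abcc4, an exporter of organic anions and cyclic nucleotides, had means of 0.50 ± 0.29 at 2 hours and 0.13 ± 0.19 at 6 hours, and the lowest of the set at 20 hours, -0.35 ± 0.38 (SD, n = 6 each). The samples at 2 hours stood at 0.23, 0.58 and 0.81 (low) and 0.68, 0.64 and 0.06 (high), and those at 6 hours at 0.24, -0.17 and 0.04 (low) and 0.21, 0.36 and 0.08 (high). At 20 hours the low-dose samples were well below air, at -0.92, -0.67 and -0.38, while the high-dose samples stood at -0.07, 0 and -0.06. The doses did not overlap at 20 hours, and the 3 differences averaged 0.61. This contrast was singled out after its values were seen, and the test over all 9 pairs did not pass (0.24 ± 0.12 SE, limma adjusted p = 0.556).

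Receptors for a cytokine, Wnt ligands, chemokines, glucagon or glutamate made up 5 of the 21. Tnfrsf12a, the receptor of the cytokine TWEAK that is raised in injured epithelium and vessels, was even across the samples at 2 hours, with a mean of 0.63 ± 0.15, and had means of 0.13 ± 0.27 at 6 hours and -0.21 ± 0.18 at 20 hours (SD, n = 6 each). Its values at 2 hours were 0.61, 0.66 and 0.34 (low) and 0.78, 0.71 and 0.66 (high). At 6 hours they were -0.27, 0.12 and 0.04 (low) and 0.46, 0.42 and 0.01 (high), and at 20 hours -0.42, -0.38 and -0.25 (low) and -0.18, -0.06 and 0.04 (high). The high-dose sample was above its low-dose partner in 8 of 9 pairs.

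Fzd2, a receptor for Wnt ligands, had means of 0.55 ± 0.27, 0.12 ± 0.20 and -0.01 ± 0.25 at the 3 times (SD, n = 6 each). At 2 hours the samples stood at 0.40, 0.67 and 0.77 (low) and 0.25, 0.90 and 0.31 (high). It was near air at 6 hours, at 0.40, -0.12 and 0.11 (low) and 0.25, 0.18 and -0.10 (high), and at 20 hours, at 0.15, -0.25 and -0.32 (low) and -0.10, 0.14 and 0.30 (high). The groups at 2 and 20 hours overlapped.

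Gpr182, a chemokine-binding receptor of endothelium, had means of 0.46 ± 0.17, 0.20 ± 0.17 and -0.22 ± 0.21 (SD, n = 6 each). It stood at 0.50, 0.69 and 0.54 (low) and 0.34, 0.52 and 0.19 (high) at 2 hours. It then stepped down through 0.26, 0.01 and 0.01 (low) and 0.14, 0.38 and 0.39 (high) at 6 hours to below air in all 6 samples at 20 hours, at -0.06, -0.47 and -0.15 (low) and -0.51, -0.07 and -0.07 (high). Gpr182 and Gstt2 were the 2 genes of the set with every sample at 6 hours above every sample at 20 hours (0.974% of all genes). This count follows in part from the rule, which held the 20-hour means low.

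The glucagon receptor Gcgr and the glutamate receptor Grm6, known from the retina, were just inside the 2-hour threshold. The means at 2, 6 and 20 hours were 0.41 ± 0.27, 0.27 ± 0.37 and 0.07 ± 0.43 for Gcgr, and 0.43 ± 0.32, 0.07 ± 0.32 and 0.05 ± 0.22 for Grm6 (SD, n = 6 each). Gcgr ran from 0.06 through a median of 0.39 to 0.75 at 2 hours, and from -0.47 through 0.11 to 0.59 at 20 hours. Grm6 ran from 0.03 through 0.46 to 0.86 and from -0.32 through 0.11 to 0.29. In both the groups overlapped, and leaving out single samples removed Gcgr from the set in 6 of 12 cases and Grm6 in 3.

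Secreted products were Cx3cl1, Fstl3 and Serpina3n. Cx3cl1 encodes fractalkine, a membrane-bound or shed chemokine that attracts monocytes and lymphocytes, and its means were 0.44 ± 0.36 (n = 6), 0.58 ± 0.32 (n = 5) and 0.07 ± 0.36 (n = 6; SD). At 2 hours it stood at 0.56, 0.79 and -0.03 (low) and 0.68, 0.61 and 0.00 (high), so the 13-week samples were at the air level. At 6 hours the values were 0.63 and 0.14 (low, 7 and 13 weeks; the 2-week sample had no value) and 0.40, 0.93 and 0.82 (high). At 20 hours they were 0.67, -0.42 and 0.00 (low) and -0.04, 0.03 and 0.20 (high), and overlapped with both earlier times.

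Fstl3, a follistatin-like antagonist of activin and myostatin, had means of 0.49 ± 0.16, 0.13 ± 0.15 and 0.09 ± 0.14 at 2, 6 and 20 hours (SD, n = 6 each). The samples at 2 hours stood at 0.51, 0.34 and 0.72 (low) and 0.48, 0.28 and 0.58 (high). Those at 6 hours stood at -0.10, 0.00 and 0.23 (low) and 0.23, 0.10 and 0.29 (high), and those at 20 hours at 0.25, -0.06 and -0.04 (low) and 0.25, 0.00 and 0.14 (high). All samples at 2 hours were above all at 20 hours, though by only 0.03 between the nearest pair. Serpina3n, an acute-phase inhibitor of serine proteases, was the most scattered, with means of 0.55 ± 0.79 (n = 6), 0.69 ± 1.12 (n = 5) and -0.13 ± 0.75 (n = 6; SD). Its values were 0.46, 0.87 and -0.97 (low) and 0.71, 0.96 and 1.26 (high) at 2 hours. At 6 hours it stood at 0.43 and 0.19 (low, 7 and 13 weeks; no value at 2 weeks) and 0.52, 2.61 and -0.32 (high), and at 20 hours at -0.04, -0.29 and -0.97 (low) and 1.14, -0.76 and 0.16 (high). No hour was separate from another in this gene.

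Regulators of transcription were Klf4, Stat3 and Zmynd11. Klf4, a Krüppel-like factor of epithelium and endothelium and the only member on the immediate early list, was above air in all 6 samples at both 2 and 6 hours, with means of 0.48 ± 0.27 and 0.17 ± 0.05, and had a mean of 0.01 ± 0.12 at 20 hours (SD, n = 6 each). It stood at 0.14, 0.44 and 0.79 (low) and 0.41, 0.79 and 0.28 (high) at 2 hours and at 0.18, 0.10 and 0.16 (low) and 0.21, 0.15 and 0.24 (high) at 6 hours, the tightest group of the set. At 20 hours it stood at 0.15, -0.12 and -0.15 (low) and 0.01, 0.11 and 0.07 (high). Stat3, which carries signals of the interleukin-6 family to the nucleus, had means of 0.44 ± 0.26, 0.00 ± 0.20 and -0.28 ± 0.24 (SD, n = 6 each). It ran from 0.04 through a median of 0.50 to 0.71 at 2 hours, from -0.27 through -0.02 to 0.34 at 6 hours, and was below air in all 6 samples at 20 hours, from -0.56 through -0.22 to -0.04. Zmynd11, a reader of a histone mark on transcribed genes, had means of 0.46 ± 0.67, 0.02 ± 0.22 and -0.01 ± 0.22 (SD, n = 6 each). At 2 hours its low-dose 2-week sample stood at 1.70 and the other 5 ran from -0.27 to 0.56, with a median over all 6 of 0.30. Without that sample Zmynd11 did not meet the rule.

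Structural and adhesion genes were Krt7, Mcam and Fat1. Krt7, a keratin of simple epithelia, had means of 0.58 ± 0.21, 0.26 ± 0.18 and 0.00 ± 0.16 (SD, n = 6 each). At 2 hours its samples stood at 0.44, 0.61 and 0.48 (low) and 0.33, 0.92 and 0.67 (high). Its values lay in between at 6 hours, at -0.04, 0.29 and 0.16 (low) and 0.45, 0.37 and 0.33 (high), and near 0 at 20 hours, at 0.18, -0.09 and -0.27 (low) and 0.08, 0.12 and -0.01 (high). Mcam, an adhesion molecule of endothelium and pericytes, had means of 0.49 ± 0.22, -0.09 ± 0.33 and -0.13 ± 0.21 (SD, n = 6 each). It was above air at 2 hours, at 0.26, 0.56 and 0.78 (low) and 0.19, 0.59 and 0.56 (high). At 6 hours only the 2-week samples were clearly above air, at 0.26 (low) and 0.25 (high), against -0.30 and 0.07 (low) and -0.56 and -0.23 (high) at 7 and 13 weeks. Its values at 20 hours were 0.11, 0.04 and -0.34 (low) and -0.32, -0.30 and 0.01 (high). The atypical cadherin Fat1 had means of 0.40 ± 0.29, -0.08 ± 0.12 and -0.01 ± 0.25 (SD, n = 6 each). It ran from 0.12 through a median of 0.32 to 0.77 at 2 hours, highest in both 7-week samples, and from -0.20 through -0.09 to 0.08 at 6 hours.

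Cd36 and Cybb are both expressed in phagocytes, but Cd36 not in these alone. Cd36, a scavenger receptor that takes up fatty acids and oxidised lipoproteins, had means of 0.41 ± 0.26, 0.61 ± 0.22 and 0.06 ± 0.21 (SD, n = 6 each). It stood at 0.42, 0.41 and 0.25 (low) and 0.38, 0.90 and 0.12 (high) at 2 hours. At 6 hours it was higher on average and above air throughout, at 0.38, 0.31 and 0.70 (low) and 0.65, 0.82 and 0.80 (high). At 20 hours it stood at -0.10, -0.07 and 0.03 (low) and -0.14, 0.31 and 0.32 (high). Cybb, the catalytic subunit of the phagocyte NADPH oxidase, had means of 0.42 ± 0.28, 0.60 ± 0.43 and 0.09 ± 0.41 (SD, n = 6 each). It stood at -0.03, 0.70 and 0.69 (low) and 0.26, 0.54 and 0.37 (high) at 2 hours. Its values at 6 hours were 0.24, 0.42 and 0.67 (low) and 0.08, 1.00 and 1.16 (high), and at 20 hours -0.49, 0.23 and 0.11 (low) and -0.17, 0.12 and 0.73 (high). The 2-week samples of Cybb were the lowest of their dose at each hour. Over the 9 macrophage markers tested, which do not include Cd36 or Cybb, the median was 0.38 at 2 hours, 0.43 at 6 hours and 0.52 at 20 hours, and the medians of single samples ran from 0.26 to 0.57, 0.25 to 0.83 and 0.24 to 0.75. The markers did not all go the same way. In the test at 6 hours given below, 6 of the 9 were higher than air and 1 was lower. Adgre1 stood at -0.747 and -0.545 and Csf1r at -0.275 and -0.145 at 2 and 20 hours. At 20 hours 3 of 6 samples of Cd36 and 2 of 6 of Cybb were below air, where the rule held both means to at most 0.1. The part of macrophage content in the values of Cd36 and Cybb was not tested at any hour.

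Mospd2, a membrane protein of the endoplasmic reticulum that tethers other organelles, completes the set, with means of 0.47 ± 0.45, 0.23 ± 0.29 and -0.29 ± 0.37 (SD, n = 6 each). At 2 hours it was high in the 7-week samples (1.10 low and 0.80 high) and in the low-dose 2-week sample (0.70), but near air in the other 3 (0.06, 0.10 and 0.06). At 6 hours it stood at 0.50, -0.22 and 0.11 (low) and 0.46, 0.06 and 0.46 (high). It was below air in all 6 samples at 20 hours, at -0.03, -1.03 and -0.07 (low) and -0.29, -0.14 and -0.18 (high).

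**Figure D3:**
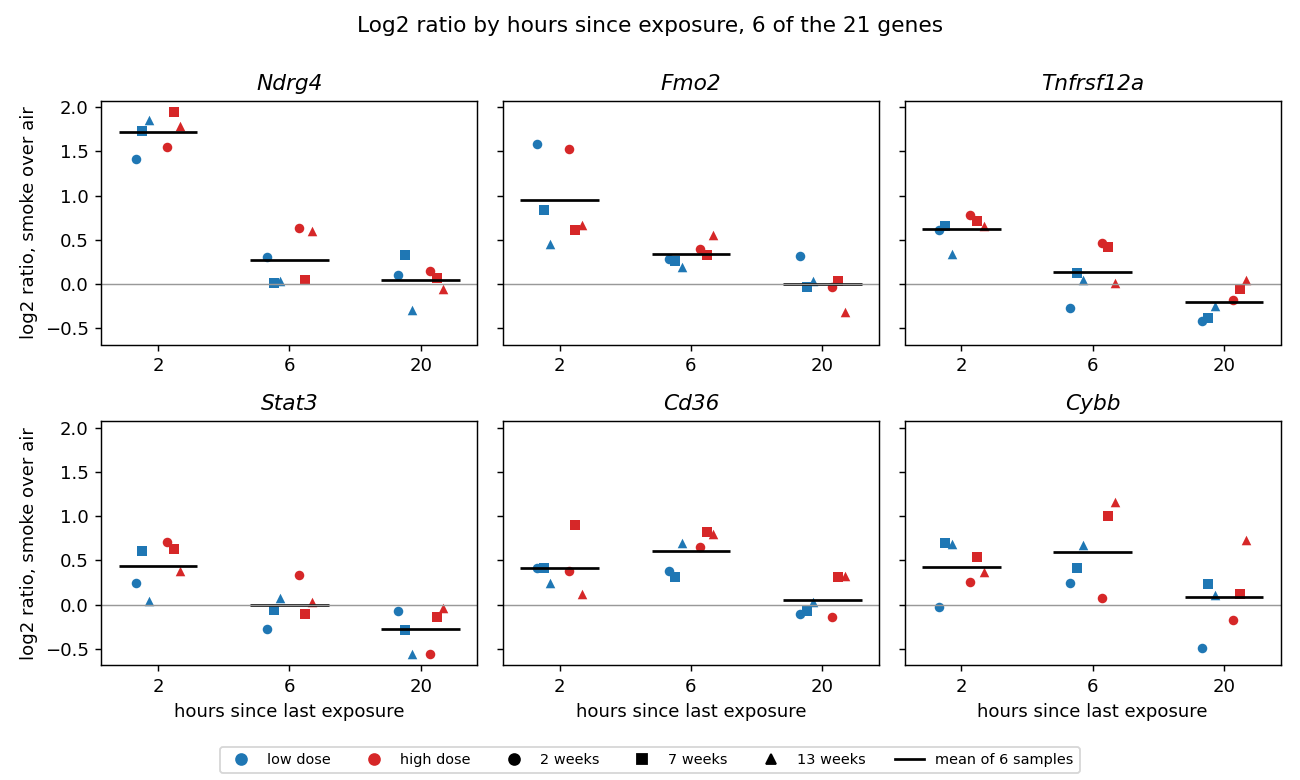
Log2 ratio of 6 of the 21 genes against hours since the last exposure; each symbol is 1 sample, blue for the low and red for the high dose, with circles, squares and triangles for 2, 7 and 13 weeks, and the bar is the mean of 6 samples. Ndrg4, Fmo2, Tnfrsf12a and Stat3 have lower means at 6 than at 2 hours, and Cd36 and Cybb have their highest mean at 6 hours.

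The values at 6 hours played no part in the choice of genes and were tested against air, but the fit takes its spread and its weeks term also from the 2- and 20-hour values, which did. The 6-hour samples alone are therefore given beside it. The level at 6 hours was fitted for all genes on 9 values, 1 per control pool (the mean of its low-dose and high-dose sample), with hours and weeks in the model. Of the 21 genes, 4 were higher than air at an adjusted p under 0.05 and 0 were lower, where 3.41% of 4016 genes tested were called higher, 1.69% lower and 5.1% in all. At an unadjusted p under 0.05 it was 11 of 21, against 19% of all. The median fitted level of the 21 was 0.20, against 0.00 over all genes tested. It was 0.13 without the 5 genes that were higher at 6 than at 2 hours, a split made on the 6-hour values themselves.

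The 4 called higher than air were Cybb (0.60 ± 0.07 SE, limma adjusted p = 0.000452), Cd36 (0.61 ± 0.09, adjusted p = 0.00178), Cx3cl1 (0.74 ± 0.15, adjusted p = 0.0168) and Gstt2 (0.49 ± 0.10, adjusted p = 0.0168). Cybb, Cd36 and Gstt2 were above air in 6 of 6 samples and Cx3cl1 in 5 of 5. All 4 belong to the 5 genes whose mean at 6 hours exceeded that at 2 hours, but the change from 2 to 6 hours was not tested. With the 6-hour samples alone limma called 123 of 4016 genes, 4 of them among the 21. These were Cd36 (adjusted p = 0.00763), Cx3cl1 (0.63, adjusted p = 0.0324), Gstt2 (adjusted p = 0.0332) and Fmo2 (adjusted p = 0.0427), and Cybb did not pass (adjusted p = 0.064). For Cx3cl1 and Serpina3n the fit of all 9 pools left out the 2-week pool at 6 hours, in which the low-dose sample had no value, and filled it through the weeks term from the other hours. Their plain means were 0.58 and 0.69. Serpina3n was fitted at 0.91 ± 0.26 and did not pass (adjusted p = 0.0736), and its level was 0.28 without the 7-week samples (adjusted p = 0.5) and 1.71 without the 13-week samples (adjusted p = 0.0229). Without the 7-week samples 2 of the 4 passed, Cd36 and Cybb, where 94 of 4015 genes were called. Cybb met the membership rule in 7 of the 12 cases with 1 sample left out, Cx3cl1 in 9, Gstt2 in 10 and Cd36 in 11, and with medians in place of means Cybb, Cd36 and Gstt2 did not meet it.

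Of the genes with the largest means at 2 hours, Fmo2, Ndrg4 and Krt7 did not pass at 6 hours in the fit of all 9 pools. Fmo2 stood at 0.33 ± 0.12 SE (adjusted p = 0.134, above air in 6 of 6 samples), Ndrg4 at 0.27 ± 0.11 (adjusted p = 0.199, in 6 of 6) and Krt7 at 0.26 ± 0.08 (adjusted p = 0.0889, in 5 of 6). With all 18 samples in the fit and the control pool as a random block, Fmo2 (adjusted p = 0.0481) and Krt7 (adjusted p = 0.0272) passed as well. The random-block fit called 6 of the 21 and 314 of 4016 genes in all. Tnfrsf12a (0.13 ± 0.07), Abcc4 (0.13 ± 0.08), Fstl3 (0.13 ± 0.07) and Fzd2 (0.12 ± 0.09) lay close to air, and so did Stat3 (0.00 ± 0.08), Fat1 (-0.08 ± 0.10) and Mcam (-0.09 ± 0.11). A level that misses the threshold is not shown to be at the air level.

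**Figure D4:**
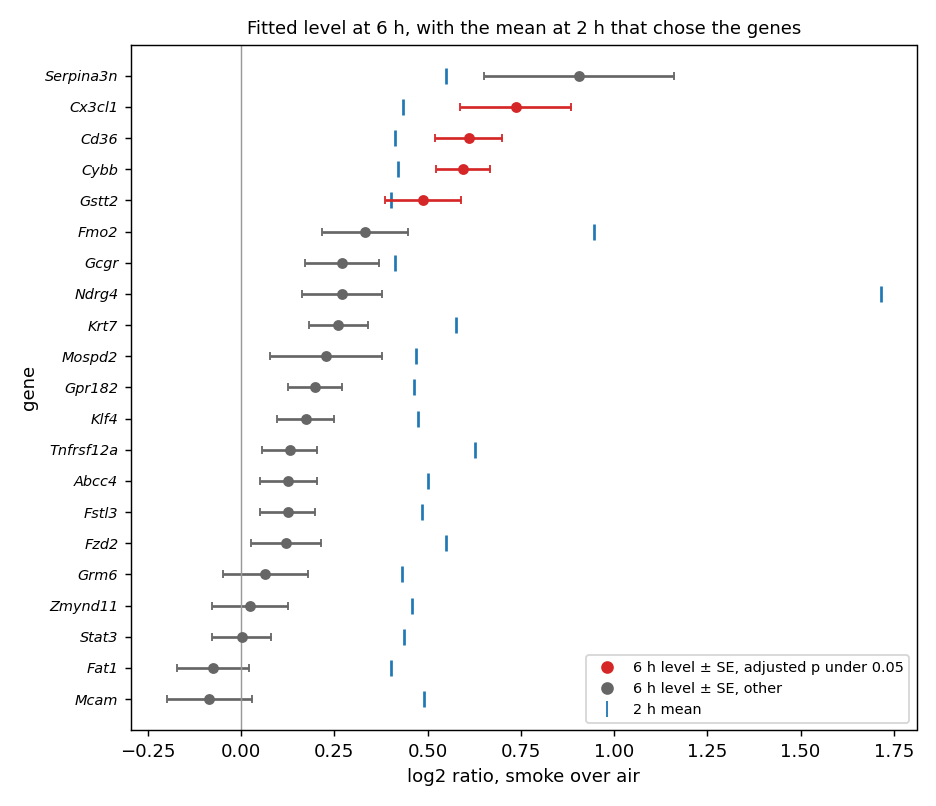
Fitted log2 ratio at 6 hours with its standard error for the 21 genes, red where the adjusted p was under 0.05, and the 2-hour mean as a blue tick. The 4 red genes, Cx3cl1, Cd36, Cybb and Gstt2, lie to the right of their ticks, and Ndrg4 moved furthest to the left, from 1.72 to 0.27.

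In none of the 21 genes did the doses differ past the threshold at 2 hours. The choice used means over both doses and not their difference, in which the control pool cancels. Of the 21 genes, 10 had a mean at 2 hours that was higher at the high dose, close to the 51.6% of all genes, and the median difference was -0.01. In the fit of the 9 differences with hours and weeks, 0 of 21 passed at 2 hours by limma (0.025% of 3995 genes passed), and 1 had an unadjusted p under 0.05 (6.28% of all), Zmynd11 at -0.41 ± 0.18 SE (adjusted p = 0.778). Its pairs at 2 hours did not go the same way, at -1.33, -0.33 and 0.43 for 2, 7 and 13 weeks. The differences at 2 hours ranged from -0.41 to 0.86 with standard errors from 0.12 to 0.48, so differences of the size of the 2-hour levels themselves could not be resolved in several genes. Ndrg4 differed by 0.10 ± 0.14 and Fmo2 by -0.02 ± 0.14.

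At the later hours more of the 21 were higher at the high dose. It was 19 of 21 at 6 hours, against 52.7% of all genes, with a median difference of 0.20. At 20 hours it was 17 of 21, against 50.1%, with a median of 0.12. At each hour the genes share the same 3 pairs of samples, so a shift in 1 pair can move many genes together. The 21 genes are therefore not independent, and these counts were not tested. Only Fzd2 and Mcam were lower at the high dose at 6 hours (-0.02 and -0.19). Over all 9 pairs, 17 of the 21 had a positive mean difference, but 0 passed limma (0.174% of 4016 genes did) or the exact sign-flip permutation test (0% of genes), and 4 had an unadjusted p under 0.05 by limma (9.91% of all). These 4 were Tnfrsf12a (0.27 ± 0.07 SE, higher in 8 of 9 pairs, limma adjusted p = 0.167), Serpina3n (0.76 ± 0.26, in 6 of 8, adjusted p = 0.274), Cd36 (0.20 ± 0.08, in 6 of 9, adjusted p = 0.364) and Krt7 (0.17 ± 0.07, in 7 of 9, adjusted p = 0.452). By the permutation test 3 of the 21 had an unadjusted p under 0.05, but the share over all genes was not counted, so this number cannot be judged. Whether the dose difference changes with the hour was not tested.

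**Figure D5:**
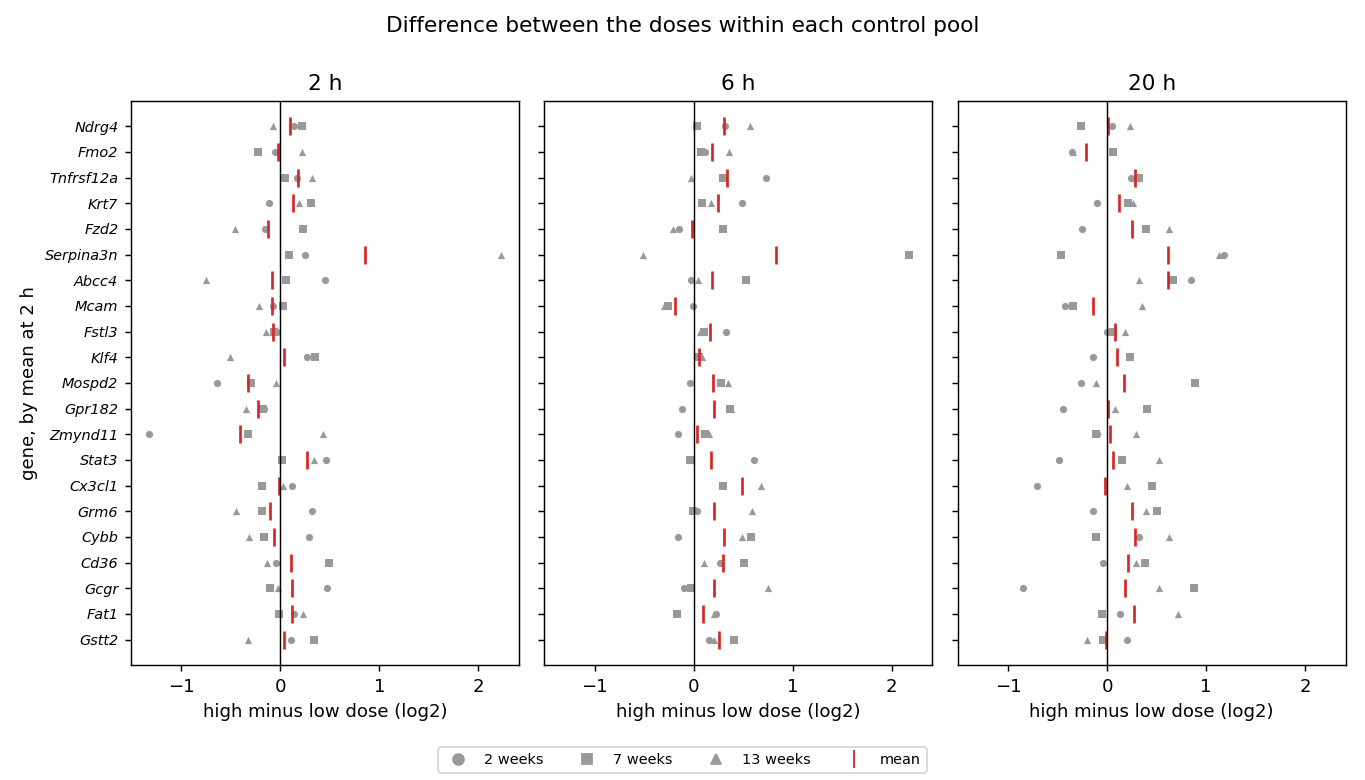
High-dose minus low-dose log2 ratio of the 21 genes within each control pool, in panels for 2, 6 and 20 hours; grey symbols are the 2-, 7- and 13-week pairs and the red tick is their mean. The ticks scatter around 0 at 2 hours, while 19 of 21 lie above 0 at 6 hours and 17 of 21 at 20 hours.

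The weeks of exposure, over which the rule averaged, were tested by an F test on the 9 pool means with hours in the model. Of the 21 genes 0 passed by limma, where 0.125% of 4015 genes did, and 3 had an unadjusted p under 0.05 (6.25% of all): Cybb, Zmynd11 and Serpina3n. Cybb came closest, with means over the hours of -0.02 at 2 weeks, 0.50 at 7 weeks and 0.62 at 13 weeks (adjusted p = 0.0854). Zmynd11 stood at 0.51, 0.03 and -0.07 (adjusted p = 0.401), in the opposite order. Its 2-week mean includes the low-dose sample of 1.70 at 2 hours. In Fmo2 the means over the hours were 0.68, 0.34 and 0.26 (adjusted p = 0.816). In Ndrg4 they were nearly equal, at 0.69, 0.69 and 0.66 (adjusted p = 0.995).

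Genes of pathways active after smoke were set beside the 21. Of 11 tested genes of the aryl hydrocarbon receptor list, 5 were higher than air at 6 hours and 0 lower, and the list median went from 0.49 at 2 hours through 0.24 to -0.01 at 20 hours, where over all genes tested the medians were 0.01, 0.00 and 0.00. None of the 21 is on this list. Cyp1a1, which met the thresholds but was left out by name, stood at 5.74, 3.95 and -0.22 at 2, 6 and 20 hours. Aldh3a1 (5.33, 1.95 and 0.32), Nqo1 (2.71, 1.62 and 0.30) and Ugt1a6 (0.65, 0.43 and 0.24) were still above 0.1 at 20 hours. Also left out by name were Ms4a7 (1.19, 0.49 and -0.22), Gclm (0.74, 0.04 and 0.07) and Nfe2l2 (0.54, 0.00 and -0.03), which encodes NRF2. Of 24 genes of NRF2 defence, 11 were higher at 6 hours and 0 lower, with medians of 0.39, 0.28 and 0.13, led at 2 hours by Nqo1, Hmox1 (1.03, 0.38 and 0.23), Gclc (0.94, 0.28 and 0.12) and Ftl1 (0.86, 0.64 and 0.44).

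Of 37 immediate early genes, 3 were higher at 6 hours and 0 lower, and the list medians were 0.14, 0.04 and 0.04. Apart from Klf4, its largest values at 2 hours were those of Ccn2 (0.81, 0.03 and 0.55), Plaur (0.79, 0.45 and 0.40), Ier3 (0.57, 0.09 and 0.23) and Ptgs2 (0.46, 0.31 and 0.13). Ccn2 and Ier3 had a lower mean at 6 than at 20 hours, and Klf4 had not. Glucocorticoid-responsive genes (2 higher and 1 lower of 14) and clock genes (1 higher and 3 lower of 7) were lowest at 6 hours, with medians of 0.26, 0.06 and 0.21 and of 0.27, -0.32 and 0.68. None of the 21 is on these lists.

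The other lists had at 6 hours 5 higher and 1 lower of 23 heat shock and unfolded protein genes, 5 and 1 of 10 chemokines and cytokines, 1 and 0 of 16 cell cycle genes, and 0 and 0 of 9 hypoxia and 10 p53 genes. Of the cell type markers, 4 of 7 for neutrophils were higher, 6 of 9 for macrophages were higher and 1 lower, and 2 of 6 for alveolar epithelium were higher and 1 lower. For lymphocytes (7 tested), endothelium and smooth muscle (7), striated muscle (7), blood (3) and airway epithelium (1) it was 0. Neutrophil markers had medians of 0.16, 0.63 and 0.26 at 2, 6 and 20 hours and lymphocyte markers of -0.49, -0.31 and -0.14. The part of such shifts in the values of the 21 genes was not tested. In the test of the 9 dose pairs, Lcn2 passed in the glucocorticoid and neutrophil lists and 0 genes passed in the others, and 0 genes of any list passed between the doses at 2 hours. Over weeks the neutrophil markers Lcn2 (also on the glucocorticoid list), S100a8 and S100a9 passed, as did Lgals3 of the macrophage and Pf4 of the blood list.

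The thresholds cut through a continuous range. Just inside the 2-hour threshold, within 0.05, were 8 of the 21, Fat1 and Gstt2 (both 0.40) nearest to it, and just outside were 14 genes, of which Ackr3 (0.397 at 2 hours), Ndel1 (0.397) and Ero1a (0.392) were nearest. Just inside the 20-hour threshold were 6, Fstl3 and Cybb (both 0.09) and Cx3cl1 (0.07) nearest, and just outside were 9, with Mgp and Hspb8 (both 0.11) and Abcc5 (0.12) nearest.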

How the data were processed

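The authors deposited 1 table of log2 ratios, 11994 rows for 18 samples, from RNA that was amplified linearly and hybridised, per the labels, over 2 arrays of the PIQOR type with smoke in Cy5 and no dye swap named. The sources used here do not name the scanner, the background correction or the normalization. Base 2 was read from the values (100% of the 257 values under -1 are the log2 of a ratio with 2 decimals), and the direction from the channel labels. Rows of a gene with equal values were merged, which left 4780 probes for 4616 genes named by the platform annotation (133 with several probes). Genes with both doses in at least 6 of 9 combinations were tested with limma 3.58.1 (lmFit, eBayes) in R 4.3.3, with statmod 1.5.0 for the random block. P values are two-sided and Benjamini-Hochberg adjusted over all genes, with a threshold of 0.05. The fits were tested on simulated data. Python 3.11.15, pandas 2.3.3 and matplotlib 3.10.9 did the rest. Alternatives were other centring, probe choice, filters, thresholds and left-out samples. Promoter sequences are RefSeq's (GRCr8).

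The genes, lists and tests were chosen with earlier results of these data known. The rule for named genes gave each of the 21 at least its means, and all sample values for the 12 largest at 2 hours, those called in a test and those on the immediate early or aryl hydrocarbon receptor lists. It names up to 4 others of a list by their 2-hour mean. Animals were pooled, so p-values measure the spread between pools.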

Additional observations from a re-analysis of the deposited data

Results flagged for a closer look

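Within the 6 samples of an hour, 5 values of the 21 genes lay far from the nearest other sample by Dixon's criterion, among 63 groups of samples examined, where chance gives about 1 in 20. Serpina3n had 2 of them, -0.97 at 2 hours (low dose, 13 weeks) and 2.61 at 6 hours (high dose, 7 weeks). Mospd2 stood at -1.03 at 20 hours (low dose, 7 weeks). In the high-dose, 13-week sample at 6 hours, Grm6 stood at 0.69 and Gcgr at 0.98.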

How the results depend on the processing

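The number of genes that met the rule was 21. Leaving out the samples of 2, 7 or 13 weeks gave 34, 23 and 33 (16, 10 and 17 of the 21 shared). It was 21 with medians in place of means, of which 14 were shared (Cd36, Cybb, Fat1, Gcgr, Grm6, Gstt2 and Zmynd11 were lost), 41 at the low and 42 at the high dose alone (14 and 10 shared), 58 and 7 with a 2-hour threshold of 0.3 and 0.5, and 12 and 40 with a 20-hour threshold of 0 and 0.2. Leaving out single samples, chosen after seeing the data, gave 17 to 27. Tnfrsf12a, Krt7, Abcc4, Mcam and Klf4 met it at each dose alone and without each of the 3 weeks. At 6 hours the 4 calls were 2 without the 7 week samples and 3 to 6 in the other alternatives. They were 0 without the 5 genes higher at 6 than at 2 hours, which follows from that choice, since all 4 are among the 5. Cx3cl1 did not pass limma without 7 weeks (adjusted p = 0.0592), nor Gstt2 without 2 or 7 weeks (adjusted p = 0.0749 and 0.1), and Serpina3n passed without 13 weeks (adjusted p = 0.0229). Over all genes, the 205 calls at 6 hours were 94 without 7 weeks, 113 without 13 weeks, 123 with the 6-hour samples alone and 314 with the random block, and the 7 calls over the dose pairs ranged from 0 to 24. The sign at 6 hours turned in genes near 0: Mcam to 0.0875 without 7 weeks, Zmynd11 to -0.10 without 2 weeks, Grm6 to -0.10 without 13 weeks, and Stat3 to -0.00167 with centred samples and to -0.015 and -0.0225 without 2 and 13 weeks. The cause was not tested. The 0 calls for dose, dose at 2 hours and weeks stayed 0 in all alternatives run. For weeks it was close, with a smallest limma adjusted p of 0.05 among genes with all 18 values. Signal over background is unknown.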

Other observations

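Of 866 distinct probes without a gene symbol that had enough values, 7 met the same thresholds. Their means at 2 hours ranged from 0.40 to 0.83, at 6 hours from 0.01 to 0.58 and at 20 hours from -0.10 to 0.05.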
